A study of Mus musculus with 8 samples.

Results

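Claudins are the membrane proteins that form the strands of tight junctions and set which ions and how much water pass between epithelial cells. The 10 claudin genes described here are Cldn1, Cldn2, Cldn3, Cldn4, Cldn5, Cldn7, Cldn8, Cldn10, Cldn12 and Cldn15, chosen by name from the 23386 genes of the deposited expression table because their products are placed in particular parts of the nephron or in its vessels. Their messenger RNA was measured by sequencing whole left kidneys of mice aged 49 weeks. The 4 KO animals were Ctrp1-/- and the 4 WT animals were wild-type littermates, all recorded as strain C57BL/6J and all from crosses of heterozygous parents. Ctrp1 (gene symbol C1qtnf1) encodes a secreted relative of adiponectin. In the KO allele the coding region of exon 4, the largest exon, and a piece of the 3' UTR are deleted in the germ line. The allele was made in 129S5/Sv embryonic stem cells and then backcrossed, so sequence of that strain near the gene can remain in KO animals only. Each library is from 1 kidney, and the labels mention male and female mice without giving the sex of an animal.

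Along the nephron the paracellular route is leaky at the start and tight at the end. Claudin-2 forms a cation and water pore in the proximal tubule and the thin descending limb, claudin-10 exists as an anion-selective form in the proximal tubule and a cation-selective form in the thick ascending limb, and claudin-12 contributes to calcium passage in the proximal tubule. Claudin-3, claudin-4, claudin-7 and claudin-8 belong to the tight distal nephron and collecting duct, where claudin-4 and claudin-8 together hold back cations and let chloride pass. Claudin-1 marks the parietal cells of Bowman's capsule, claudin-5 seals vascular endothelium, and claudin-15, a cation pore of the intestine, has been placed in kidney vessels. Below, Cldn2, Cldn10 and Cldn12 are taken as 3 leaky segment claudins, Cldn3, Cldn4, Cldn7 and Cldn8 as 4 tight segment claudins, and Cldn1, Cldn5 and Cldn15 as 3 claudins of capsule and vessels.

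The family is recognised by a signature in the first extracellular loop, the loop that lines the pore or barrier. The 30 coding bases around it are shown for every gene because they show how close the genes are and why a single value for Cldn10 covers different proteins. They were read from the GENCODE vM21 transcripts, whose build GRCm38 is the mm10 of the deposited table. Capitals mark the codons for glycine or asparagine, leucine and tryptophan and, further on, for cysteine. The first 4 lines are the leaky segment claudins, the next 4 the tight segment claudins and the last 3 those of capsule and vessels.
Cldn2 (chrX:139808849-139808878, plus strand): aagGGCCTCTGGatggagTGTgcgacacac
Cldn10, upstream first exon (chr14:118788289-118788318, plus strand): cagGGTCTGTGGatgaacTGCgcaggtaac
Cldn10, downstream first exon (chr14:118855128-118855157, plus strand): gccAACCTGTGGaagatcTGCgttaccgat
Cldn12 (chr5:5508243-5508272, minus strand): acgGGCCTGTGGgtgaagTGTgcccggtat
Cldn3 (chr5:134986583-134986612, plus strand): gagGGCCTGTGGatgaacTGCgtggtgcag
Cldn4 (chr5:134946575-134946604, minus strand): gagGGCCTCTGGatgaacTGCgtggtgcag
Cldn7 (chr11:69966068-69966097, plus strand): aagGGGCTCTGGatggagTGCgtcacgcag
Cldn8 (chr16:88562865-88562894, minus strand): gaaGGCTTGTGGatgaatTGTatgaggcat
Cldn1 (chr16:26371456-26371485, minus strand): gagGGACTGTGGatgtccTGCgtttcgcaa
Cldn5 (chr16:18777137-18777166, plus strand): aagGGGCTGTGGatgtcgTGCgtggtgcag
Cldn15 (chr5:136968242-136968271, plus strand): gagAACCTGTGGtacagcTGTgccaccgac

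All 11 stretches are exonic and coding. Those of Cldn3 and Cldn4, genes without introns that lie close together on chromosome 5, share 29 of 30 bases, the most of any pair, whereas the median over all pairs was 19 and the lowest 12. Cldn15 and the downstream form of Cldn10 carry asparagine codons where the others carry glycine. The forms of Cldn10 start from different first exons, and the deposited table gives 1 value for the gene, so the anion-selective and cation-selective forms cannot be told apart here. Cldn2 lies on chromosome X, Cldn1, Cldn5 and Cldn8 on chromosome 16, and Cldn3, Cldn4, Cldn12 and Cldn15 on chromosome 5. Cldn7 lies on chromosome 11, the chromosome of C1qtnf1. The span of Cldn3 overlaps that of the antisense gene Wbscr25, which was listed at 0 in all 4 KO libraries and at most at 0.0301 scaled FPKM in WT; whether reads were counted by strand is not stated, and without strand the reads of such a pair cannot be told apart. The span of Cldn10 overlaps that of a 5S ribosomal RNA copy.

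The libraries held 15027400 to 19256378 counted reads, and each of the 10 claudins had between 94 and 11750 reads in every library. Values are scaled FPKM, read counts adjusted for gene length and sequencing depth and then divided by 1 correction factor per library, so levels can be compared between genes. C1qtnf1 lay between 0.188 and 0.575 scaled FPKM in the KO libraries and between 2.74 and 4.75 in the WT libraries, and so went with the labels. The labelled tissue showed in the nephron markers, among them the uromodulin gene Umod of the thick ascending limb (1503 ± 134 in KO and 1327 ± 246 in WT, SD, n = 4). In bulk RNA, fewer cells of a type and less RNA per cell cannot be told apart, which holds for every value below.

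The leaky segment claudins were the most abundant. Over the 8 libraries Cldn2 averaged 195 ± 14.0 scaled FPKM (SD, n = 8), rank 325 of the 14022 genes tested, Cldn10 averaged 72.6 ± 7.13 and Cldn12 averaged 28.6 ± 2.55. The tight segment claudin Cldn8 followed at 22.4 ± 4.25, then Cldn7 at 11.8 ± 2.18, Cldn4 at 10.2 ± 4.13 and the endothelial Cldn5 at 8.61 ± 0.832. Cldn3 at 6.75 ± 1.36, Cldn15 at 6.72 ± 1.38 and Cldn1 at 5.48 ± 1.03 came last. In this order, the ranges over the libraries were separate only between Cldn2 and Cldn10, between Cldn10 and Cldn12, and between Cldn8 and Cldn7. Cldn12 exceeded Cldn8 in 7 of 8 libraries, Cldn7 exceeded Cldn4 in 7, and Cldn4 exceeded Cldn5 in only 3, so its higher mean over Cldn5 rests on few libraries. Cldn3 exceeded Cldn15 in 5 of 8 and Cldn15 exceeded Cldn1 in 5 of 8, which leaves the order of the last 3 unsettled. Between libraries Cldn2 varied least, with a coefficient of variation of 7.14%, and Cldn4 most, at 40.6%.

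**Figure D1:**
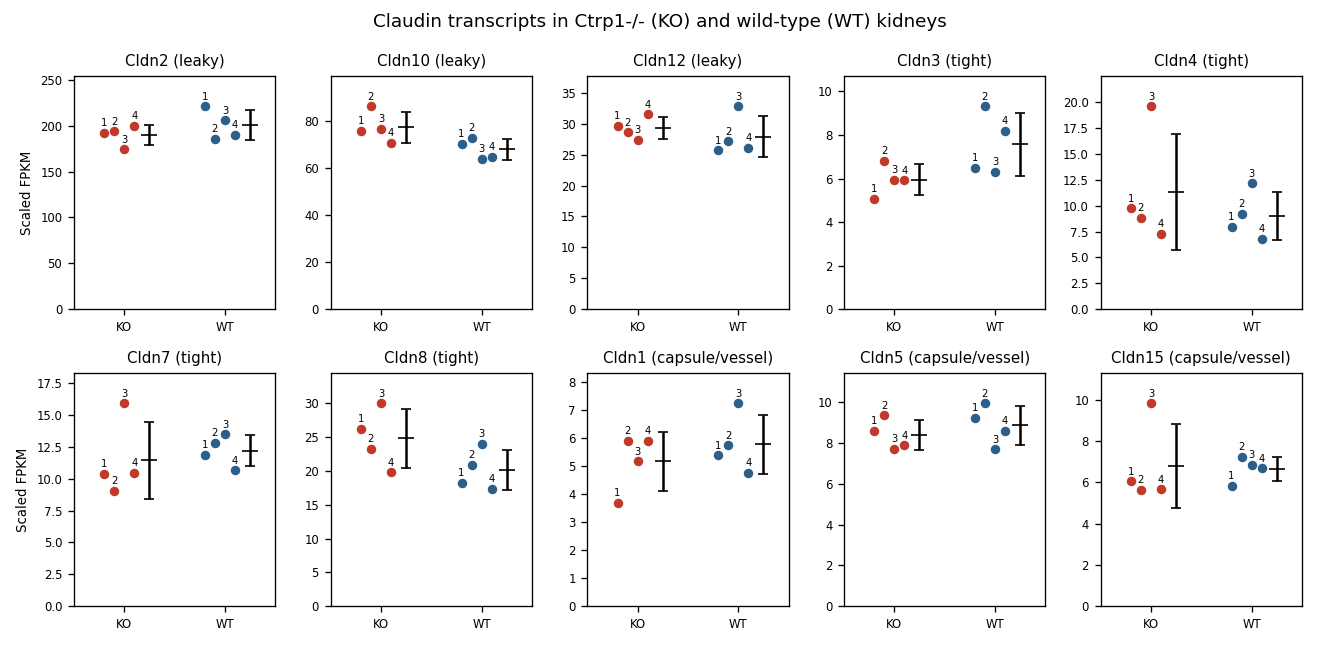
Scaled FPKM (vertical axes, linear, from 0) of each claudin in the kidney libraries of Ctrp1-/- (KO) and wild-type (WT) mice; points are libraries numbered by replicate, with the mean ± SD of each group (n = 4) drawn as a bar. The groups overlap for all 10 genes, and KO replicate 3 stands above the other KO libraries for Cldn4 (19.6), Cldn7 (15.9), Cldn8 (29.9) and Cldn15 (9.81).

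No claudin passed the test between Ctrp1-/- and wild-type kidneys. None of the 10 was called (0 of 10) at a limma adjusted p under 0.05, where 0.0499% of all 14022 tested genes were, and the claudins' adjusted p ran from 0.266 to 0.995. At an unadjusted p under 0.05 there were 2 of 10, Cldn10 on the higher and Cldn3 on the lower side in KO, against 15.4% of all tested genes. For 0 of 10 were the KO and WT libraries without overlap, against 8.62% of all tested genes. The log2 fold changes of KO over WT ran from -0.31 to 0.29, with 4 above 0, 6 below 0 and a median of -0.039, beside a median of -0.0012 over all tested genes. With limma's voom on the recovered reads, again 0 of 10 were called.

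Among the leaky segment claudins, Cldn10 had the lowest p. It measured 75.7, 86.1, 76.6 and 70.6 scaled FPKM in the KO libraries, against 70.3, 72.9, 63.9 and 64.7 in the WT libraries. Of the KO libraries 3 lay above every WT library, and KO replicate 4 lay below WT replicate 2. The means were 77.3 ± 6.48 in KO and 67.9 ± 4.33 in WT (SD, n = 4 each), a log2 fold change of 0.18 (SE 0.070, 95% interval 0.027 to 0.34, unadjusted p = 0.0262, limma adjusted p = 0.266). The interval corresponds to a fold between 1.02 and 1.26.

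Cldn2, the cation and water pore, measured 192, 194, 174 and 200.1 scaled FPKM in KO and 221, 186, 206 and 190 in WT. The highest value was WT replicate 1 and the lowest KO replicate 3, with the other libraries mixed between them. Its log2 fold change was -0.075 (SE 0.068, limma adjusted p = 0.621), and the 95% interval from -0.23 to 0.077 leaves room for a KO level between 0.854 and 1.06 times that of WT. Cldn12 measured 29.6, 28.6, 27.4 and 31.5 in KO and 25.7, 27.1, 32.8 and 26.1 in WT. WT replicate 3 was above all KO libraries and the other 3 WT libraries were below them, giving a log2 fold change of 0.072 (95% interval -0.11 to 0.25, limma adjusted p = 0.697). It was 0.15 without WT replicate 3 (unadjusted p = 0.0276, limma adjusted p = 0.176) and 0.0076 with GC and length trends taken out. The fit without WT replicate 3 was singled out after the values were seen, and 21.8% of all genes tested in it had an unadjusted p under 0.05. Markers of the proximal tubule, the main site of Cldn2, summed to 4150 to 4418 scaled FPKM in KO and to 4415 to 4926 in WT over the 10 genes listed. The phosphate transporter gene Slc34a1 alone gave 2318 to 2539 of these in KO and 2611 to 2995 in WT. The list went both ways, with 4 log2 fold changes above 0 and 6 below, and 0 called. At an unadjusted p under 0.05, 2 were higher and 4 lower in KO, against 15.4% of all tested genes. The amino acid transporter gene Slc7a13, for one, averaged 512 ± 36.1 in KO and 390 ± 72.2 in WT. The part of the proximal tubule in the values of Cldn2 was not tested. The 5 markers of the thick ascending limb, a site of Cldn10, summed to 2004.5 to 2469 in KO and to 1698 to 2486 in WT. All 5 log2 fold changes were above 0 (median 0.19), with 0 called. At an unadjusted p under 0.05 there were 0, against 15.4% of all tested genes. The part of the thick ascending limb in the values of Cldn10 was not tested.

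The tight segment claudins went different ways. Cldn3 measured 5.08, 6.82, 5.95 and 5.91 scaled FPKM in KO, against 6.50, 9.31, 6.29 and 8.17 in WT. KO replicate 2 was the only KO library above any WT library, exceeding WT replicates 1 and 3. The means were 5.94 ± 0.708 and 7.57 ± 1.43 in KO and WT (SD, n = 4 each), with a log2 fold change of -0.31 (SE 0.13, 95% interval -0.60 to -0.030, unadjusted p = 0.0334, limma adjusted p = 0.285). Cldn3 is the most GC-rich of the 10, with 62.8% G and C in its longest annotated transcript, and over all tested genes the log2 fold change fell with GC content (Spearman's rho of -0.44 across genes, which are not independent replicates). After trends with GC content and length were removed from each library, Cldn3 stood at -0.19 with an unadjusted p of 0.104.

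Cldn8 was on the opposite side. It measured 26.1, 23.3, 29.9 and 19.8 scaled FPKM in KO, against 18.2, 20.9, 24.0 and 17.3 in WT. KO replicates 1 and 3 exceeded every WT library, and KO replicate 4 lay below WT replicates 2 and 3. The means were 24.8 ± 4.31 in KO and 20.1 ± 3.01 in WT (SD, n = 4 each), a log2 fold change of 0.29 (SE 0.13, 95% interval -0.0081 to 0.59, limma adjusted p = 0.336). With 40.6% G and C its transcript is among the least GC-rich of the set, and with GC and length trends taken out its log2 fold change was 0.21, whereas that of Cldn10, at 49.8% G and C, was 0.20. Without KO replicate 3, its highest library, Cldn8 stood at 0.19 (limma adjusted p = 0.51).

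Cldn4 measured 9.74, 8.79, 19.6 and 7.26 scaled FPKM in KO and 7.97, 9.22, 12.1 and 6.79 in WT. KO replicate 3 was the highest of all, and the other libraries of both groups were mixed. The log2 fold change was 0.24 (SE 0.27, limma adjusted p = 0.697) with all libraries and -0.046 without KO replicate 3. Cldn7, which lies on the basolateral side of distal and collecting duct cells, measured 10.3, 9.06, 15.9 and 10.4 in KO and 11.8, 12.8, 13.5 and 10.6 in WT. The other 3 KO libraries were below every WT library while KO replicate 3 was above them all. Its log2 fold change was -0.11 (SE 0.15, limma adjusted p = 0.741) with all libraries and -0.28 without KO replicate 3 (unadjusted p = 0.0131, limma adjusted p = 0.280). The fit without KO replicate 3 was singled out after the values were seen. In it, 14.0% of all genes tested had an unadjusted p under 0.05.

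Among the claudins of capsule and vessels, Cldn1 of the parietal epithelium measured 3.69, 5.92, 5.18 and 5.91 scaled FPKM in KO and 5.39, 5.74, 7.24 and 4.75 in WT. KO replicate 1 was the lowest and WT replicate 3 the highest, and the log2 fold change was -0.15 (SE 0.16, limma adjusted p = 0.660). The endothelial Cldn5 measured 8.57, 9.33, 7.70 and 7.88 in KO and 9.22, 9.92, 7.68 and 8.59 in WT, with WT holding both the highest and the lowest library and a log2 fold change of -0.074 (95% interval -0.27 to 0.12). The 9 endothelial markers summed to 212 to 271 in KO and 224 to 254 in WT. Cldn15 measured 6.05, 5.65, 9.81 and 5.67 in KO and 5.82, 7.23, 6.85 and 6.68 in WT. Without KO replicate 3, which was the highest of all, its log2 fold change was -0.18 (unadjusted p = 0.0499, limma adjusted p = 0.358), against -0.0032 with that library. That library was singled out after its values were seen, and 14.0% of all genes tested without it had an unadjusted p under 0.05.

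**Figure D2:**
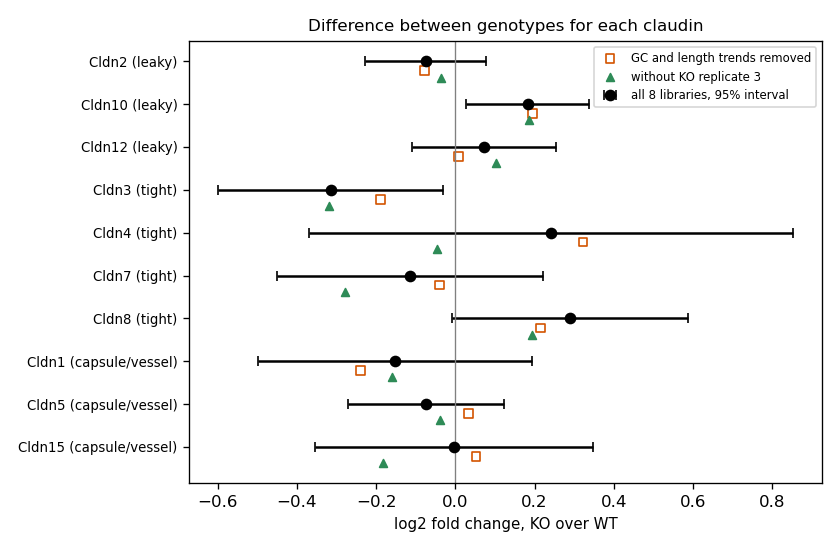
For each claudin, the difference between KO and WT as a log2 fold change (horizontal axis, KO over WT), with the 95% interval of the limma fit on all 8 libraries (black), the value once GC and length trends were taken out (orange squares) and the value without KO replicate 3 (green triangles). Cldn10 stays near 0.18 to 0.20 in the fits drawn, though it was 0.13 without KO replicate 2, which is not drawn. Cldn3 moves to -0.19 after the GC correction, and Cldn4, Cldn7, Cldn8 and Cldn15 move down without KO replicate 3.

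The balance of leaky against tight segment claudins was set side by side in each library. Cldn2, Cldn10 and Cldn12 together summed to 297, 308, 278 and 302 scaled FPKM in KO and to 317, 286, 302 and 280.5 in WT. Cldn3, Cldn4, Cldn7 and Cldn8 summed to 51.3, 47.9, 71.3 and 43.4 in KO and to 44.6, 52.2, 55.9 and 42.9 in WT. The leaky sums thus differed little within and between genotypes (297 ± 13.0 in KO and 296 ± 16.6 in WT, SD, n = 4 each), and the tight sums were spread more widely (53.5 ± 12.3 in KO and 48.9 ± 6.19 in WT).

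When the mean log2 level of the tight class was taken from that of the leaky class, the difference was 2.75, 2.82, 2.18 and 2.91 in KO and 2.78, 2.49, 2.54 and 2.71 in WT. KO replicate 3 was the lowest of all 8 libraries and KO replicates 2 and 4 were the highest. The means were 2.66 ± 0.330 and 2.63 ± 0.135 in KO and WT, so the gap between genotypes of 0.034 was far below the spread between libraries. Without KO replicate 3, singled out after its values were seen, the gap was 0.20, with WT replicate 1 inside the KO range. That was above the pooled SD of 0.116 of the 7 libraries left. KO replicate 3 held the lowest value, however, so leaving it out raises the KO mean and narrows the spread by construction. With each other library left out in turn, the gap ran from -0.048 (without KO replicate 4) to 0.084 (without WT replicate 1). The gap was -0.035 after GC and length trends were removed. Cldn2 alone made up 51.3 ± 3.34% of the FPKM of the 10 claudins in KO and 54.7 ± 2.65% in WT, with the lowest share, 46.8%, again in KO replicate 3.

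**Figure D3:**
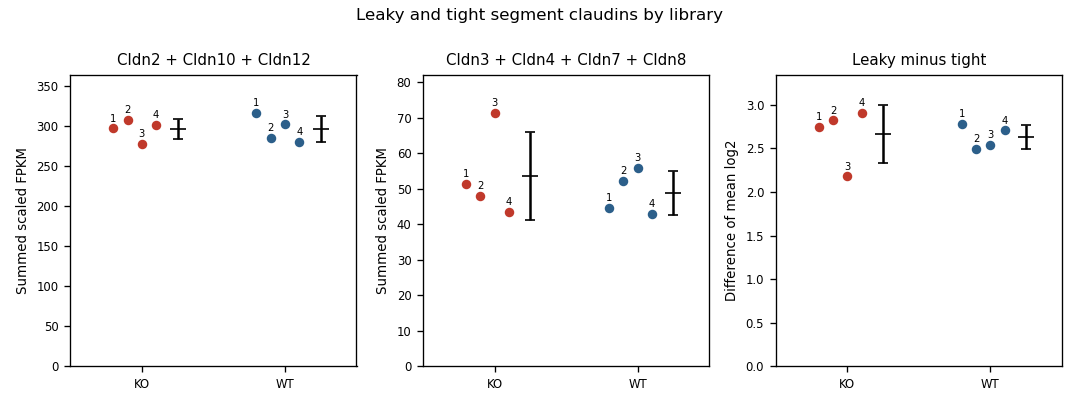
Summed scaled FPKM of the leaky segment claudins (left) and of the tight segment claudins (middle), and the mean log2 level of the leaky minus that of the tight class (right), in each KO and WT library; points are numbered by replicate and bars are mean ± SD (n = 4), with axes from 0. The tight sum reaches 71.3 in KO replicate 3 against 42.9 to 55.9 in the WT libraries, and the leaky minus tight difference is lowest there, at 2.18.

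KO replicate 3 held the highest level of the 8 libraries for 4 of the 10 claudins, Cldn4, Cldn7, Cldn8 and Cldn15, while 13.7% of all tested genes were highest in it. Other markers stood apart in the same library. The 8 principal cell markers summed to 674 scaled FPKM in it, against 277 to 367 in the other KO libraries and 326 to 389 in WT. Within that list the vasopressin-regulated water channel gene Aqp2 measured 446, against 108 to 170 in the other KO libraries and 132 to 189 in WT, whereas Scnn1g, a subunit of the epithelial sodium channel, was at its lowest there (8.24). Urothelium, the lining of the renal pelvis, can come with a whole kidney and makes claudin-4 itself. The 7 urothelial markers, of which 6 were tested and 0 were called, summed to 16.3, 17.2, 44.1 and 4.48 in KO and to 12.7, 3.62, 31.7 and 1.25 in WT. KO replicate 3 and WT replicate 3 had the highest urothelial sums and also the highest Cldn4 in their groups, and WT replicate 4, where the urothelial genes Upk2, Upk3a and Krt5 were listed at 0, had the lowest of both. That order did not hold throughout. WT replicate 1 had a higher urothelial sum than WT replicate 2 but a lower Cldn4 (7.97 against 9.22). Psca was higher in KO replicate 3 than in WT replicate 3 (25.8 against 14.7), whereas Upk1a was lower (4.05 against 5.01). The part of principal and urothelial cells in the claudin values was not tested. With KO replicate 3 and WT replicate 3 both left out, a choice made after seeing the data, 0 claudins were called. In that fit 4 of 10 had an unadjusted p under 0.05, against 20.4% of all genes tested. They were Cldn3 at -0.40, Cldn7 at -0.23, Cldn8 at 0.28 and Cldn12 at 0.18, while Cldn4 stood at 0.10.

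**Figure D4:**
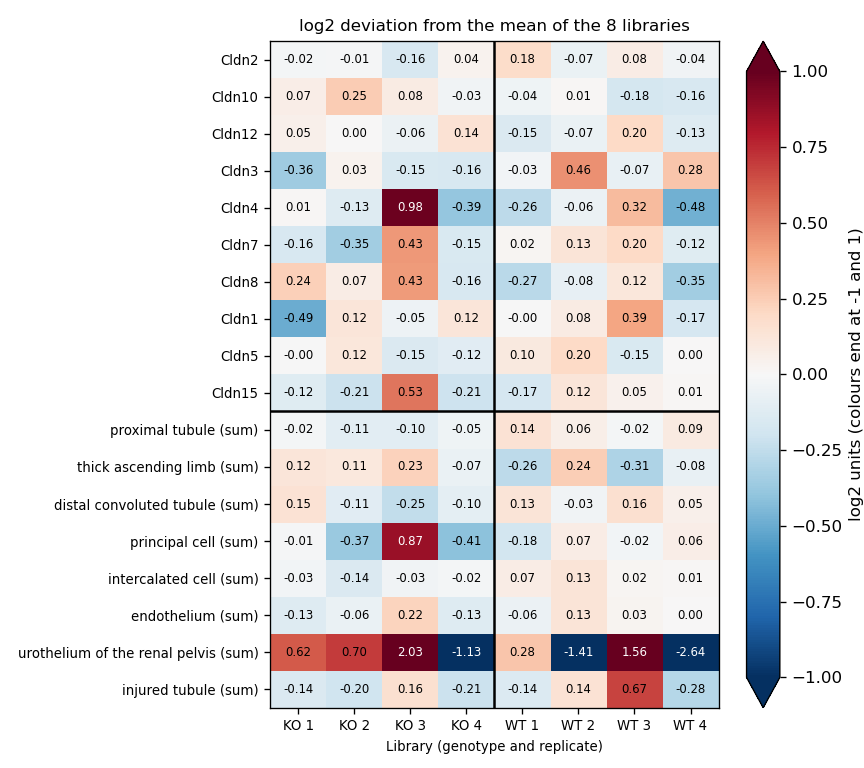
Deviation of each claudin (above the line) and of the summed markers of each cell type (below it) from the mean of the 8 libraries, in log2 units after adding 0.5; columns are the KO and WT libraries, and red is higher and blue lower. Cldn4, Cldn7, Cldn8 and Cldn15 are reddest in KO replicate 3, where the principal cell and urothelial sums are highest too (674 and 44.1 scaled FPKM).

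The levels of the claudins were also compared with each other across the 8 libraries. Of the 45 pairs compared over both genotypes, 4 reached an exact permutation p under 0.05 before adjustment and 0 passed after adjustment over the 45 pairs. The strongest was that of Cldn4 and Cldn8, the partners of the collecting duct barrier, with Pearson's r = 0.88 (exact permutation p = 0.00198, adjusted p = 0.0893) and Spearman's rho = 0.93 (exact permutation p = 0.00223, adjusted p = 0.10). Within genotypes, as deviations from each group's mean, r was 0.92, and without the 2 libraries farthest from the median of Cldn4, KO replicate 3 and WT replicate 3, it was 0.85. The second pair was Cldn7 and Cldn15, with r = 0.87 (exact permutation p = 0.00439, adjusted p = 0.0988) and rho = 0.86 (exact permutation p = 0.0107, adjusted p = 0.241). Their r was 0.89 within genotypes and 0.64 without KO replicates 2 and 3. Cldn4 and Cldn15 had r = 0.83 (exact permutation p = 0.0275, adjusted p = 0.309) and rho = 0.60 (exact permutation p = 0.132, adjusted p = 0.781). Within genotypes it was 0.87, but 0.084 without KO replicate 3 and WT replicate 3, so this relation rested on those libraries. The libraries share whatever differs in their make-up of cells, and no more than co-variation of levels was measured.

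The table lists 15 further genes under claudin symbols, which together with the 10 make 25. Of these 15, 6 reached the mean of 0.5 scaled FPKM needed for testing, and 0 were called. An unadjusted p under 0.05 was reached by 0 of them, against 15.4% of all tested genes. The 10 claudins described here held 91.0% to 92.3% of the FPKM under all claudin symbols in KO and 91.4% to 92.7% in WT. Cldn16 and Cldn19 encode the cation pore partners of the thick ascending limb, which reclaim magnesium and calcium. Cldn16 measured 6.90 ± 0.405 in KO and 7.54 ± 0.818 in WT (log2 fold change -0.12, limma adjusted p = 0.520), and Cldn19 measured 7.92 ± 1.96 and 6.68 ± 1.48 in KO and WT (0.22, limma adjusted p = 0.563). Cldn11 measured 0.812, 0.599, 3.06 and 0.394 in KO and 0.0683, 0.244, 1.96 and 0 in WT. Its highest values were again in KO replicate 3 and WT replicate 3, and its limma adjusted p was 0.514. Cldn14, a blocker of the Cldn16 and Cldn19 pore, had at most 2 reads in any library.

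Of the other proteins of the junction membrane, all 11 genes were tested, 0 were called, and 3 had an unadjusted p under 0.05, all on the higher side in KO (median of the 11, 0.080). Over all tested genes, 0.0499% were called and 15.4% had an unadjusted p under 0.05. Cxadr, the coxsackievirus and adenovirus receptor, is an adhesion protein of the junction. It measured 7.55, 7.01, 6.72 and 6.76 scaled FPKM in KO, against 5.53, 5.50, 5.67 and 5.23 in WT. The groups did not overlap, and the log2 fold change was 0.33 (SE 0.060, unadjusted p = 0.000294), which missed the threshold after adjustment (limma adjusted p = 0.108). Genes named from this list were taken for their smallest p, which favours groups without overlap. Of all tested genes, 8.62% had groups without overlap. Marveld2 encodes tricellulin, which seals the corners where 3 cells meet. It measured 6.05, 5.95, 6.44 and 6.64 in KO and 4.46, 5.08, 5.01 and 5.81 in WT, also without overlap (0.28, SE 0.080, limma adjusted p = 0.190). Jam2, a junctional adhesion molecule of endothelium, measured 2.91 ± 0.753 and 1.97 ± 0.493 in KO and WT (0.46, limma adjusted p = 0.260), with KO replicate 3 the highest at 4.03.

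Among scaffold and polarity genes, which tie claudins to the cytoskeleton, 14 were tested, 0 were called, and 2 had an unadjusted p under 0.05, both higher in KO (median of the 14, 0.059). That count is near the share of all tested genes, 15.4%. Mpp5, the polarity scaffold PALS1, measured 20.5, 17.7, 18.0 and 18.4 scaled FPKM in KO and 13.7, 15.0, 16.6 and 16.9 in WT. The groups did not overlap for it, as for 8.62% of all tested genes, and it was named for its small p. Its log2 fold change was 0.26 (SE 0.077, limma adjusted p = 0.204). Magi3 measured 4.32 ± 0.551 in KO and 3.56 ± 0.224 in WT (0.24, limma adjusted p = 0.268). Crb3, an apical polarity protein, measured 20.0 ± 1.49 and 22.3 ± 1.65 in KO and WT (-0.15, limma adjusted p = 0.348).

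The 10 genes listed as regulators of claudins were all tested and 0 were called. At an unadjusted p under 0.05, 2 were higher and 1 lower in KO, against 15.4% of all tested genes. Wnk4, a kinase that phosphorylates claudins of the distal nephron, measured 55.5, 54.7, 57.8 and 51.7 scaled FPKM in KO and 63.6, 64.7, 57.5 and 62.3 in WT. KO replicate 3 lay just above WT replicate 3 and the rest of the KO libraries lay below all WT libraries (log2 fold change -0.17, SE 0.054, limma adjusted p = 0.215). Cul3, part of the ubiquitin ligase that with Klhl3 acts on claudin-8, measured 34.1 ± 1.59 in KO and 30.5 ± 2.12 in WT (0.16, limma adjusted p = 0.269).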

How the data were processed

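FPKM for 23386 genes and 8 libraries were deposited by the authors, per the file headers, with gene positions and lengths (the GeneLength column, in bases, another deposited value). The submitters' processing notes name CASAVA, STAR 2.5, HTSeq 0.6.1, DESeq2 and mm10 without roles. FPKM times length gave whole reads for 100% of values (tolerance 0.01). No column of another sample was present. Whether counting used strand is not stated.

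Each library was divided by a median-ratio factor (0.978 to 1.03). Genes averaging at least 0.5 scaled FPKM, 14022 in all, were fitted as log2(scaled FPKM + 0.5) with limma 3.58.1 in R 4.3.3 (eBayes with trend, genotype the only term, two-sided), p-values being adjusted by Benjamini and Hochberg's method over all of them. Fold changes on this scale understate changes of low genes. The fit was tested on simulated data. All 10 claudins passed the filter. Members and lists were chosen with earlier results of these data known. Genes named are the 10 members, the 3 tested genes of smallest p of each pathway list and up to 2 abundant markers per cell type list. The 3 claudin pairs of largest r and C1qtnf1 are named too. Cldn14, Cldn25, Scnn1g, Upk2, Upk3a, Krt5, Havcr1, Lcn2 and Wbscr25 were named after their values were seen. A gene that this rule names is not reported here. The labels call libraries of a genotype biological replicates and give them no shared numbers, so none were paired. Pairs of claudins were tested with exact two-sided permutations over 8 libraries. GC content came from the longest GENCODE vM21 transcript (found for 99.5% of tested genes) and trends were removed with splines of 4 degrees of freedom. Other alternatives were other pseudocounts, filters, scalings and limma settings, voom on the recovered reads and leaving out each library.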

Additional observations from a re-analysis of the deposited data

Results flagged for a closer look

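Of 60 groups of 4 libraries looked at, 3 held a library far from the other three by Dixon's criterion, where chance flags about 1 in 20 groups. Cldn15 measured 9.81 scaled FPKM in KO replicate 3, against 5.65 to 6.05 in the other KO libraries. The summed markers of injured tubule measured 563 scaled FPKM in the same library, against 436 to 457 in the other KO libraries, while WT replicate 3 reached 806. Spp1 alone gave 346 of the sum in KO replicate 3, and the list went both ways there. Lcn2, at 4.07, was at its highest of all libraries, whereas Havcr1, at 0.482, was at its lowest. The summed intercalated cell markers measured 122 scaled FPKM in KO replicate 2, against 132 to 133 in the other KO libraries. In WT the sums were 136 to 148, above those of all KO libraries. Of the 8 markers, 2 had log2 fold changes above 0 and 6 below, and 0 were called. At an unadjusted p under 0.05, 4 were lower and 0 higher in KO, against 15.4% of all tested genes.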

How the results depend on the processing

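With 7 genes called over the whole table, 0 of 10 claudins were called under each of the 21 alternative fits run, the lowest adjusted p of a claudin being 0.134 (Cldn3 without WT replicate 3). The number of claudins at an unadjusted p under 0.05, 2 with all libraries, was 1 once GC and length trends were taken out, 3 with voom, 4 with KO replicate 3 and WT replicate 3 both left out, and 0 to 3 when single libraries were left out, with 0 without WT replicate 4 and 1 without KO replicate 1, KO replicate 2 or WT replicate 2. The share of all tested genes at that p moved too. It was 15.4% with all libraries, 11.4% with GC and length trends taken out, 2250 of 14022 genes with voom, 20.4% with both libraries left out and 10.7% to 21.8% (without WT replicate 3) when single libraries were left out. The number of genes called over the whole table was 5 to 16 when single libraries were left out, with 16 without WT replicate 3. Directions changed for 3 claudins, Cldn15, Cldn5 and Cldn4. Cldn15 stood at 0.0037 with FPKM as deposited, at 0.052 with those trends taken out and at -0.18 to 0.067 when single libraries were left out. Cldn5 stood at 0.033 with them taken out, and Cldn4 ran from -0.046 (without KO replicate 3) to 0.41 when single libraries were left out. The cause of these changes was not tested. The leaky minus tight difference between genotypes ran from -0.11 (log2 of summed levels) to 0.20 (without KO replicate 3), beside a pooled SD of 0.252 over all libraries. Without KO replicate 3 the pooled SD was 0.116, and without both that library and WT replicate 3 the difference was 0.17 with a pooled SD of 0.119, so both differences exceeded the spread among the libraries left. KO replicate 3 held the lowest value, so leaving it out raises the KO mean and narrows the spread by construction.

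With 4 libraries a group, the 95% intervals of single claudins spanned from 0.30 (Cldn2) to 1.22 (Cldn4) log2 units from end to end. Counting error alone, taken as Poisson, came to 10.3% of the level at the lowest read count (94 reads, Cldn3) and to at most 1.08% for Cldn2, so depth limits Cldn3 more than Cldn2.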

Other observations

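Ratios between claudins within a library, chosen after their values were seen, are free of the scaling between libraries but not of trends with GC content. Cldn3 over Cldn8 was 0.194, 0.293, 0.199 and 0.299 in KO and 0.356, 0.445, 0.262 and 0.473 in WT, with WT replicate 3 within the KO range. Cldn3 and Cldn8 lie far apart in GC content, at 62.8% and 40.6%, and this ratio was not corrected for it. Cldn10 over Cldn2 was 0.394, 0.445, 0.439 and 0.353 in KO and 0.318, 0.393, 0.311 and 0.341 in WT, so that WT replicate 2 exceeded KO replicate 4. Cldn4 over Cldn8 was 0.653 in KO replicate 3, 0.367 to 0.378 in the other KO libraries and 0.393 to 0.505 in WT.

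The deposited table lists as Cldn25 a gene of 14.5 ± 1.00 scaled FPKM in KO and 15.2 ± 0.538 in WT (SD, n = 4 each), which would rank above Cldn7. Its identifier is paired with the symbol Cldnd1 in the GENCODE names, and it was chosen after its values were seen.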
